A study of Mus musculus with 2 samples.

Results

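Progenitors in S phase, as judged by transcripts alone, were taken from a single-cell data set of mouse bone marrow. They were the cells with a high share of replication transcripts and few mitotic ones, and they numbered 856 of 7823 kept cells. The counts hold no measure of DNA content or DNA synthesis. A cell was counted as an S-phase cell when 20 replication genes (Mcm2 to Mcm7, Pcna, Tyms, Rrm1, Rrm2, Gins2, Uhrf1, Cdc6, Dut, Slbp, Hells, Ung, Fen1, Tk1 and Lig1, called the S list) gave at least 0.5% of its counted molecules (UMIs), and 11 mitotic genes (Mki67, Ccnb1, Ccnb2, Cdc20, Aurka, Plk1, Cenpa, Cenpe, Cenpf, Ube2c and Hmmr, called the mitotic list) gave under 0.1%. Kept barcodes held 500 or more detected genes, with mitochondrial transcripts under 10% of their UMIs. The remaining 6967 kept cells comprised 106 cells past both thresholds, 1775 past the mitotic threshold only and 5086 under both.

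The series compared multipotent progenitors of a C57BL/6 Spp1-/- mouse sample with those of a C57BL/6 wild-type sample, both taken 20 hours after an injection of thioglycollate, an irritant that draws leukocytes into the peritoneal cavity. Spp1 encodes osteopontin, a secreted matrix protein and cytokine. The sort took marrow cells without lineage markers that carried Sca-1, c-kit and CD34, with a further gate that the labels write as Flt3L+, and RNA was counted by droplet-based 3′ sequencing. Each genotype gave 1 sample, the number of mice behind it is not stated in the labels, and both were deposited in 1 pooled matrix whose 2 libraries differ in a barcode suffix. The labels do not match the suffixes to genotypes, and no genotype was inferred from counts. Values are therefore given by library, every library ratio is library 2 over library 1, and none has a direction by genotype. With 1 library per genotype, and with cells chosen by their own counts, no test was possible: 95% intervals (exact Poisson for counts, exact binomial for shares) cover counting error only. Kept cells had a median of 3836 UMIs in library 2 and 2830 in library 1, with 18750468 and 10118499 UMIs in all. The sort markers Cd34, Ly6a (Sca-1), Kit and Flt3 were all present in S-phase cells, with Cd34 at 456 and 439 counts per 1000000 UMIs (CPM) in libraries 2 and 1. A total of 32 barcode sequences, each 14 bases long, occurred in both libraries, and 8 S-phase cells carried one of them.

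A cell enters S phase when cyclin E and its kinase release the E2F transcription factors, which then drive the genes for origin licensing, nucleotide supply and the replication fork. The MCM helicase is loaded on origins in G1 and unwinds the DNA in S phase, PCNA holds the polymerases on the template, and thymidylate synthase, thymidine kinase and ribonucleotide reductase supply the deoxynucleotides. Most haematopoietic stem cells rest outside the cycle, whereas multipotent progenitors divide often. Mitotic transcripts are switched on later, by the MuvB complex with B-MYB and FOXM1, while in resting cells and G1 the DREAM complex holds them down.

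At the thresholds of the rule the S-phase class took a larger share of library 2 than of library 1. At an S-list threshold of 0.75% only 26 cells of library 2 and 21 of library 1 remained. Their shares were 0.569% and 0.646%, a difference of -0.0766 points, so the larger share did not hold there. In library 2, 604 of 4570 kept cells were S-phase cells (13.2%, 12.2 to 14.2), and in library 1, 252 of 3253 (7.75%, 6.85 to 8.72). The difference was 5.47 percentage points (4.11 to 6.80, Newcombe interval). Libraries differed in depth, so the share was also counted among cells with 2004 to 3825 UMIs, the range of the middle 50% of cells of library 1: it was then 14.9% and 10.7%, 4.14 points apart (1.88 to 6.40). With the rule applied to counts thinned to 2000 UMIs per cell, the shares were 16.9% and 11.7%. The share also varied with depth within each library. With the cells of a library ranked by UMIs and divided into 4 equal groups, it was 5.16% and 4.19% in the shallowest group of libraries 2 and 1, 19.4% and 9.21% in the next, 22.0% and 12.2% in the next, and 6.30% and 5.40% in the deepest. In the deepest group 7.52% of cells of library 2 and 5.77% of library 1 reached the S-list threshold, against 24.8% and 13.7% in the group before it. Under the mitotic threshold lay 38.1% and 66.9% of cells of the deepest group, against 66.5% and 82.8% in the group before it. The part of each threshold in the fall was not tested.

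S-phase cells were close to the other kept cells in depth. Their median was 3929.5 UMIs against 3801.5 UMIs in other kept cells of library 2, and 2993.5 against 2810 in library 1. Cells past the mitotic threshold only were deeper, at 5312 and 3929 UMIs, and cells under both thresholds were shallower, at 3129.5 and 2612.5 UMIs. The median mitochondrial share was 0.470% in S-phase cells against 0.514% in other kept cells of library 2, and 0.398% against 0.487% in library 1.

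The threshold cuts a continuous range of S-list shares. S-phase cells had a median S-list share of 0.566% in library 2, against 0.270% in other kept cells, and 0.573% against 0.238% in library 1. These shares set the class and are a description. A median of 22.5 S-list UMIs per S-phase cell in library 2 and 17 in library 1 stood behind them. Just inside the threshold, between 0.5% and 0.55%, lay 248 cells of library 2 and 91 of library 1, and just outside it, between 0.45% and 0.5%, lay 262 and 155 cells.

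**Figure D1:**
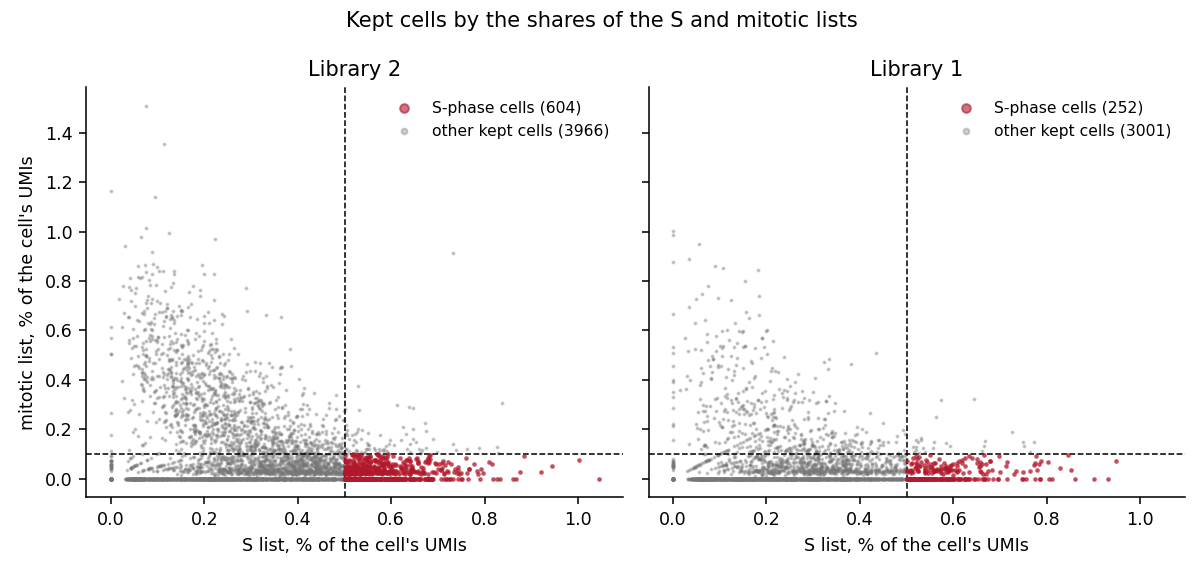
Each point is 1 kept cell, placed by the share of its UMIs from the S list (horizontal, %) and from the mitotic list (vertical, %), with library 2 on the left and library 1 on the right. Dashed lines mark 0.5% and 0.1%, red points are the 604 and 252 S-phase cells, and the cells run without a gap across the 0.5% line.

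To see how far the class holds in counts that did not choose it, each cell's UMIs were divided at random into 2 parts of equal chance, the rule was applied to the first, and the second was measured. By the first part 680 cells of library 2 and 340 of library 1 were S-phase cells. In the second part the S list gave 0.461% of their UMIs (0.449 to 0.472) in library 2, against 0.300% (0.296 to 0.304) in the other cells. In library 1 it gave 0.405% (0.388 to 0.423) against 0.268% (0.263 to 0.272). Of these cells 32.6% and 24.4% also met the rule by the second part, against 11.2% and 8.44% of the others. The S-list genes had a median log2 ratio of 0.65 in library 2 and 0.61 in library 1 between these groups in the second part, against 1.08 and 1.21 when the same counts chose the cells.

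The 4 genes that mark the class were all well measured, and as members of the rule their ratios are a description. Tyms, thymidylate synthase, which makes dTMP, lies on chromosome 5 (chr5:30058202-30073617, minus strand, GRCm38). Its level was 463 CPM (436.2 to 491.2) in S-phase cells of library 2 against 202 CPM in other kept cells, and 525 CPM (475 to 579) against 176 CPM in library 1. Rrm2, the S-phase subunit of ribonucleotide reductase (chr12:24708241-24714146, plus strand), had 330 CPM against 128 CPM in library 2 and 341 CPM against 101 CPM in library 1. Both genes feed the same pool of deoxynucleotides. Tk1, the cytosolic thymidine kinase (chr11:117815526-117826092, minus strand), had 315 CPM against 139 CPM in library 2 and 343 CPM against 121 CPM in library 1. Ung, uracil-DNA glycosylase, which removes uracil from new DNA (chr5:114130386-114139323, plus strand), had 87.4 CPM against 29.9 CPM in library 2 and 87.3 CPM against 29.8 CPM in library 1. Of the 20 S-list genes Rrm2 had the largest mean log2 ratio, at 1.37 in library 2 and 1.75 in library 1, and Dut, the dUTPase, had 0.77 and 0.84. The 6 MCM genes lay between 0.90 and 1.02 in library 2 and between 0.90 and 1.27 in library 1.

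The S list did not have the same make-up in every class. The same counts chose the cells, so these shares are a description, and the separate UMIs are given after them. Tyms, Tk1, Rrm1 and Rrm2 together gave 23.5% of S-list UMIs (22.8 to 24.2) in S-phase cells of library 2 and 24.9% (23.7 to 26.2) in those of library 1. In cells under both thresholds they gave 19.2% (18.8 to 19.7) and 19.0% (18.4 to 19.5), and in cells past both thresholds 29.6% and 30.0%. Cells past the mitotic threshold only had 26.6% (25.9 to 27.3) and 25.4% (24.1 to 26.6). A share above that of cells under both thresholds was therefore not particular to S-phase cells. The Mcm2 to Mcm7 genes ran the other way: 30.1% (29.4 to 30.9) and 30.2% (28.9 to 31.6) in S-phase cells, against 33.9% (33.4 to 34.5) and 34.2% (33.6 to 34.9) in cells under both thresholds. In cells past the mitotic threshold only the MCM genes gave 29.7% and 30.4%, close to S-phase cells. Ung and Cdc6, the licensing ATPase that loads MCM, gave 2.74% and 2.41% in S-phase cells, against 0.812% and 0.929% in cells past the mitotic threshold only. In cells under both thresholds Ung and Cdc6 gave 2.68% (2.50 to 2.88) and 2.29% (2.09 to 2.52), so their share was not particular to S-phase cells. Ung itself stood at 87.4 and 87.3 CPM in S-phase cells, at 5.41 CPM (3.83 to 7.43) and 8.55 CPM (5.07 to 13.5) in cells past the mitotic threshold only, and at 49.8 and 35.7 CPM in cells under both thresholds. Thinned to 2000 UMIs per cell, the 4 nucleotide genes gave 22.3% and 23.4% in S-phase cells, against 16.9% and 18.2% in cells under both thresholds. When 1 random part of the UMIs chose the cells and the other was measured, they gave 23.7% (22.6 to 24.7) and 23.6% (21.8 to 25.5) in S-phase cells, against 19.6% (18.98 to 20.3) and 19.2% (18.4 to 20.01) in cells under both thresholds. The MCM genes then gave 29.2% (28.1 to 30.4) and 31.1% (29.1 to 33.2), against 34.0% (33.2 to 34.8) and 34.3% (33.3 to 35.2).

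**Figure D2:**
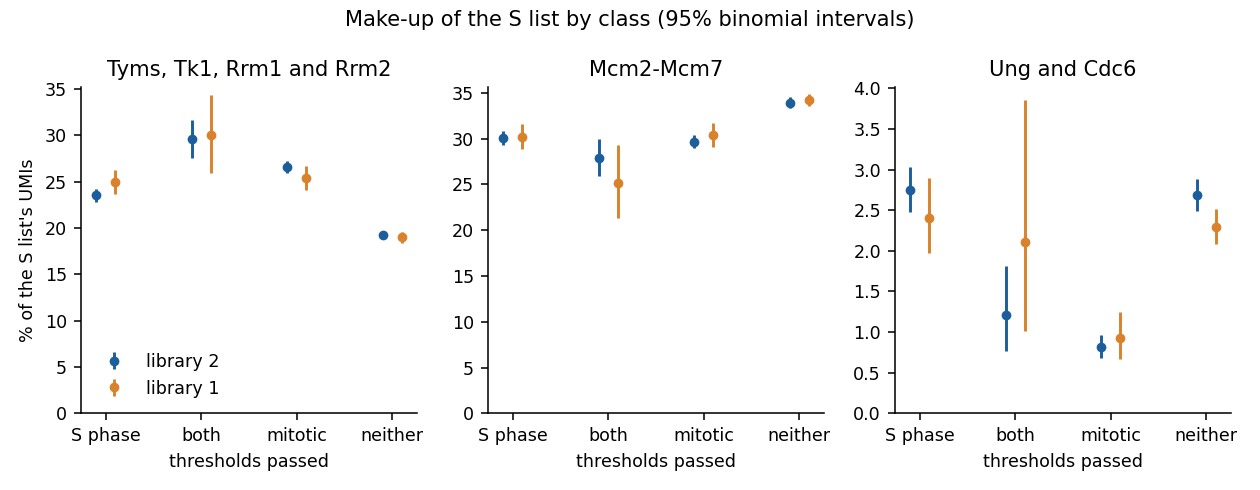
Share of the S list's UMIs (%, vertical) that came from 4 nucleotide genes, 6 MCM genes, and Ung with Cdc6, in S-phase cells, cells past both thresholds, cells past the mitotic threshold only and cells under both, with library 2 left of library 1 and 95% binomial intervals. The nucleotide genes gave 23.5% and 24.9% in S-phase cells, 26.6% and 25.4% in cells past the mitotic threshold only, and 19.2% and 19.0% in cells under both thresholds. Ung with Cdc6 was lowest in cells past the mitotic threshold only.

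Outside the rule, the 15 genes with the highest ratios in S-phase cells included cyclins E1 and E2, E2F factors and repair and fork genes beside genes on no cell-cycle list. A gene was called higher or lower when summed CPM differed at least 1.5-fold in the same direction in both libraries and both 95% intervals of the ratio (exact conditional Poisson) left out 1. Of 8211 tested genes outside the rule, each with at least 50 UMIs in kept cells of each library, 54 were called higher (0.658%) and 23 lower (0.28%), together 0.938%. Over all 8242 tested genes, rule genes included, 1.31% were called, 0.898% higher and 0.413% lower. When 1 random part of the UMIs chose the cells and the other gave the values, 32 genes were called higher, 18 of them among the 54, and 20 lower, 8 of them among the 23. Of the 15 highest and 10 lowest genes named below, 9 were called again there: E2f2, Tcf19, Spag4, Dscc1 and Exo1 higher, and Elane, Cdkn3, Hist1h2bc and Cks2 lower. The other 16 were not, Ccne1, Ccne2 and Bok among them, and that split leaves about 50% of the UMIs to measure. With TMM scaling the split was 41 higher and 36 lower. The median log2 ratio over all 8242 tested genes was 0.0037 in library 2 and 0.0042 in library 1. Of the 54 higher genes, 25 stood on a list of cell-cycle or other genes used here and 29 on none.

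The cyclins that open S phase were among the genes with the highest ratios. Ccne1, cyclin E1 (chr7:38097984-38107534, minus strand), had 39 UMIs or 16.3 CPM in S-phase cells of library 2 against 5.07 CPM in other kept cells, and 13 UMIs or 17.2 CPM against 7.16 CPM in library 1. Its log2 ratios were 1.69 (1.097 to 2.25) and 1.26 (0.28 to 2.14). Ccne2, cyclin E2 (chr4:11191351-11204779, plus strand), had 37.2 CPM against 11.9 CPM in library 2 and 27.8 CPM against 13.2 CPM in library 1, with log2 ratios of 1.64 (1.26 to 2.01) and 1.07 (0.33 to 1.74). In cells past the mitotic threshold only Ccne1 stood at 1.57 and 3.32 CPM and Ccne2 at 3.42 and 6.65 CPM. In the few cells past both thresholds Ccne1 had 3 UMIs in library 2 and 0 in library 1. Against cells under both thresholds the log2 ratios of Ccne1 were 1.09 and 1.04, and it was called higher there too. With the separate UMIs the log2 ratios of Ccne1 were 1.43 (0.56 to 2.24) and 1.20 (-0.14 to 2.35), and those of Ccne2 1.54 (1.02 to 2.04) and 0.83 (-0.20 to 1.74), so the call was lost in library 1.

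Among the E2F factors, the activators E2f1 and E2f2 and the repressor E2f8 were called higher. E2f2 had 19.2 CPM in S-phase cells against 7.89 CPM in other kept cells of library 2 and 21.2 CPM against 9.08 CPM in library 1, a log2 ratio of 1.29 and 1.22. E2f8, which dampens E2F targets as S phase goes on, had 35.1 CPM against 19.4 CPM and 43.7 CPM against 16.9 CPM. Of 20 measured G1 and S cyclins, their kinases and E2F factors, 5 were called higher and 0 lower, with a list median of 0.27 in library 2 and 0.26 in library 1. The cyclin D side of the list did not pass: Ccnd2 had log2 ratios of 0.04 and 0.17, Cdk6 -0.17 and -0.07, and Cdk4 0.07 and 0.36.

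Genes of the origin and fork outside the rule had ratios above 1 nearly throughout. Of 44 measured, 10 were called higher and 0 lower, 41 had a ratio above 1 in both libraries, and the median log2 ratio was 0.52 in library 2 and 0.48 in library 1. The highest by UMIs was 2810417H13Rik, also named PCLAF, a PCNA-binding factor, at 761 CPM in S-phase cells against 419 CPM in other kept cells of library 2 and 746 CPM against 340 CPM in library 1. Dscc1, a subunit of an alternative clamp loader, had 89.9 CPM against 37.9 CPM and 75.4 CPM against 38.2 CPM. Clspn, the checkpoint mediator at the fork, had log2 ratios of 1.07 and 0.80, and Gmnn, geminin, which blocks re-licensing of origins, had 0.79 and 0.71. The clamp loader subunit Rfc3, the primase subunit Prim1, the single-strand binding subunit Rpa2, Atad5, Pole and Gins1 completed the 10. Rfc2 and Tipin, with log2 ratios of 0.43 to 0.52, lay under the 1.5-fold limit.

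Of 26 measured checkpoint and repair genes 6 were called higher and 0 lower, with a list median of 0.45 in library 2 and 0.43 in library 1, among them Brca1 and Rad54l, which act in homologous recombination, Exo1, an end-resecting nuclease, and Msh6, a mismatch sensor. Exo1 had 61.1 CPM in S-phase cells against 29.0 CPM in other kept cells of library 2 and 51.6 CPM against 25.6 CPM in library 1. Brca1 rested on 59 and 12 UMIs in S-phase cells, with log2 ratios of 1.04 (0.59 to 1.46) and 1.11 (0.09 to 2.003). Of 30 nucleotide and folate genes outside the rule 2 were called higher and 0 lower, and the list median was 0.26 and 0.37. Among them Shmt1, serine hydroxymethyltransferase, had 118 CPM in S-phase cells against 73.3 CPM in other kept cells of library 2 and 96.6 CPM against 61.5 CPM in library 1. Of 21 chromatin assembly genes the histone chaperone Asf1b and the E2F cofactor Atad2 were called higher, and the list median was 0.20 and 0.25.

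**Figure D3:**
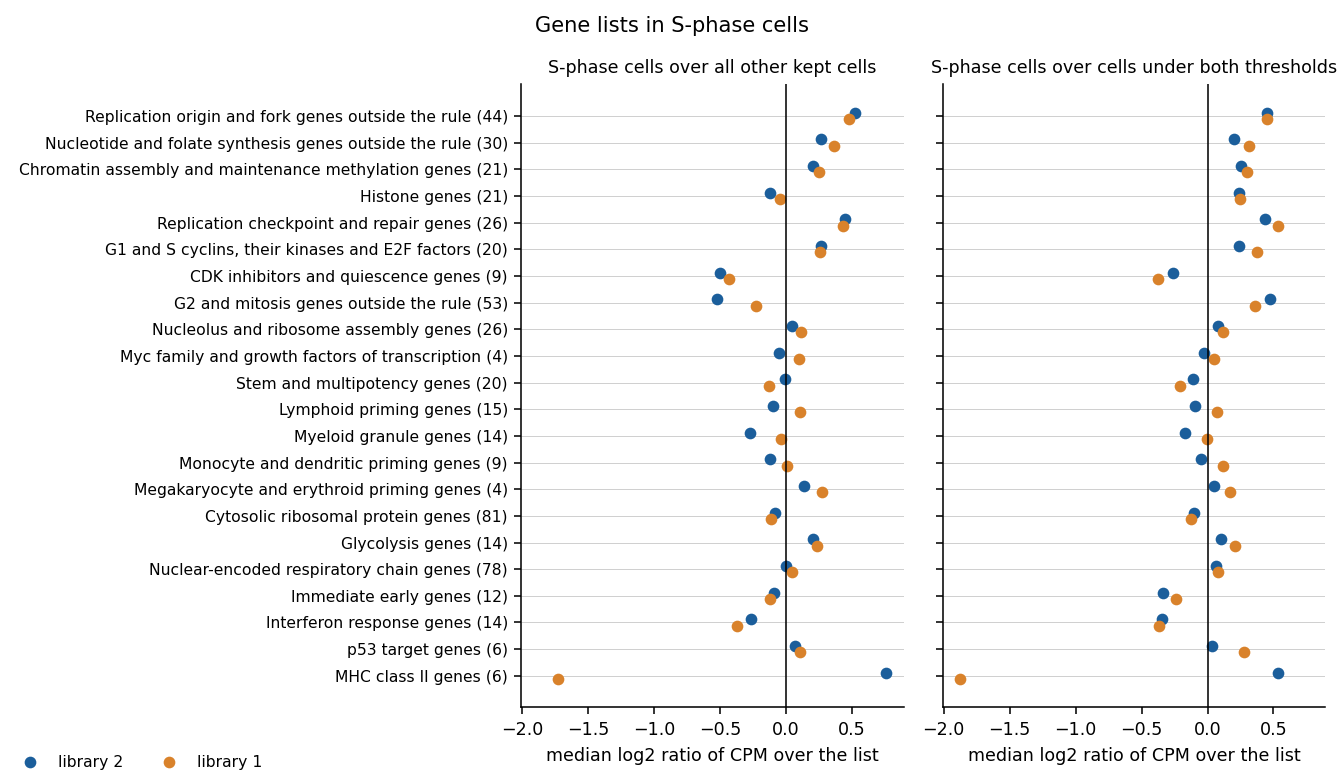
Median log2 ratio of CPM over the measured genes of each list (horizontal) in library 2 (blue) and library 1 (orange), for S-phase cells over all other kept cells (left, with the number of genes measured there) and over cells under both thresholds (right). The replication list stood at 0.52 and 0.48 on the left and at 0.45 in both libraries on the right, while the mitosis list was below 0 on the left and above 0 on the right.

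Several of the genes with the highest ratios belong to no list of the cycle. Tcf19, a gene first described as a growth-phase transcript, had 79.1 CPM in S-phase cells against 27.9 CPM in other kept cells of library 2 and 54.2 CPM against 27.8 CPM in library 1. Bok, a BCL2-family effector of cell death, had 18.8 CPM against 6.48 CPM and 17.2 CPM against 6.94 CPM. Nsg1, known as a neuronal endosomal protein, had log2 ratios of 1.18 and 1.44, and Spag4, a SUN-domain protein of the nuclear envelope, had 0.86 and 1.43. Nefh, the heavy neurofilament subunit, had 47.7 CPM against 21.7 CPM and 46.3 CPM against 24.3 CPM. Tubb6, a beta-tubulin, Mpp7, a polarity scaffold, and Prkar2a, a regulatory subunit of protein kinase A, completed the 15 highest, with 9 to 57 UMIs per library in S-phase cells. These low counts leave wide intervals: that of Mpp7 in library 1 ran from 0.15 to 2.43 on the log2 scale.

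**Figure D4:**
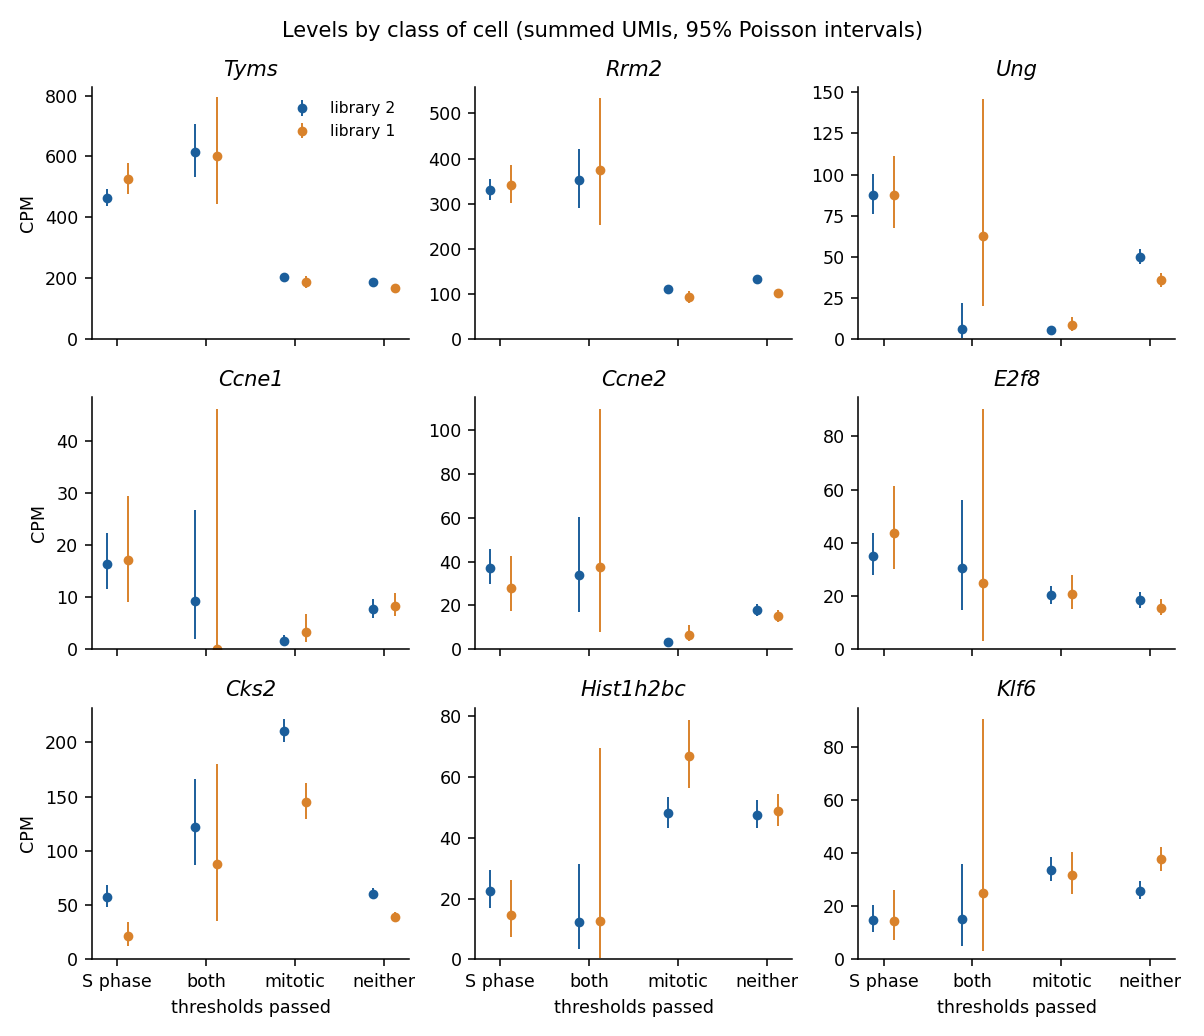
Level in CPM (vertical, from 0) of 9 genes in S-phase cells, cells past both thresholds, cells past the mitotic threshold only and cells under both, with library 2 (blue) left of library 1 (orange) and 95% Poisson intervals of the summed UMIs. Ccne2 was lowest in cells past the mitotic threshold only, Cks2 was highest there, and Hist1h2bc and Klf6 were lower in S-phase cells than in cells under both thresholds.

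By list median, mitosis genes were lower in S-phase cells than in all other kept cells and higher than in cells under both thresholds. The rule's mitotic threshold keeps cells rich in mitotic transcripts out of the S-phase class, so the first of these is a description. Of 53 genes of G2 and mitosis outside the rule 9 were called lower than in other kept cells and 0 higher, with a list median of -0.53 in library 2 and -0.23 in library 1, and the other kept cells include the 1270 and 505 cells past the mitotic threshold only. Against cells under both thresholds, where 7613 genes outside the rule were tested, with 0.736% called higher and 0.236% lower, 46 of these genes were measured, 7 were called higher and 0 lower. Their list median was then 0.47 and 0.36. Pbk, a mitotic kinase, had 156 CPM in S-phase cells against 77.8 CPM in cells under both thresholds of library 2 and 149 CPM against 61.2 CPM in library 1. Spc24 and Spc25, subunits of the kinetochore's NDC80 complex, Cdk1, Aurkb, Mad2l1 and Cdca2 were the other 6. Top2a, the topoisomerase that untangles sister DNA, had 389 CPM in S-phase cells of library 2, against 466 CPM in other kept cells and 279 CPM in cells under both thresholds, and 384 CPM against 326 and 240 CPM in library 1. Cdkn3, a phosphatase of cell-cycle kinases, rested on 11 and 1 UMIs in S-phase cells, and Cks2, a subunit of those kinases, had 57.7 CPM against 126 CPM in other kept cells of library 2 and 21.2 CPM against 63.3 CPM in library 1. Cdc25c, which activates CDK1, had 12 UMIs in S-phase cells of library 2, and in library 1 it had 0 UMIs against 74 in other kept cells, at least 1.99-fold lower with 3 counts as the limit that a 0 allows. Psrc1, a spindle protein, and Aspm, a spindle-pole protein, were also among the 10 lowest genes, with log2 ratios of -2.08 and -1.30 in library 2 and -1.59 and -2.21 in library 1.

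A few genes were called lower both against other kept cells and against cells under both thresholds, among them Hist1h2bc, Klf6 and Ifit1. With the separate UMIs Hist1h2bc was called lower again, but Klf6 and Ifit1 were not. Hist1h2bc, a histone H2B gene, had 22.6 CPM (54 UMIs) in S-phase cells of library 2 against 47.1 CPM in other kept cells, and 14.6 CPM (11 UMIs) against 52.7 CPM in library 1. In cells under both thresholds it stood at 47.6 and 48.9 CPM, and in cells past the mitotic threshold only at 48.1 and 67.0 CPM. It was the 1 histone gene of 21 measured that was called lower, with 0 called higher and a list median of -0.13 and -0.04. Against cells under both thresholds the histone list median was above 0, at 0.24 and 0.25. Replication-dependent histone messages lack a poly(A) tail, which 3′ libraries primed on poly(A) largely miss. Klf6, a Krüppel-like factor on the list of CDK inhibitors and quiescence genes, had 14.6 CPM against 29.0 CPM in library 2 and 14.6 CPM against 36.2 CPM in library 1. Klf6 was the only gene of the 9 measured on that list to be called lower than in other kept cells. The list median was -0.50 and -0.43, with Btg2, an antiproliferative factor, at -0.50 and -0.90 and Cdkn1b, the inhibitor p27, at -0.70 and -0.38. Ifit1, an interferon-induced gene, rested on 9 and 2 UMIs in S-phase cells, and the 14 measured interferon response genes had a median of -0.27 and -0.37 with 1 called lower. Log2 ratios of Ifit1 in the separate UMIs were -0.63 (-1.81 to 0.36) and -0.52 (-2.45 to 0.92). Suv420h1, a histone H4 methyltransferase, had log2 ratios of -1.07 and -1.97, from 14 and 2 UMIs. With the separate UMIs its ratios were -0.89 (-2.06 to 0.09) and 0.44 (-0.96 to 1.59), so the sign in library 1 did not hold.

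The lowest ratio of all belonged to Elane, neutrophil elastase, which was carried by very few cells. It had 3.77 CPM in S-phase cells against 88.1 CPM in other kept cells of library 2 and 7.94 CPM against 65.6 CPM in library 1, from 9 and 6 UMIs in S-phase cells. Of all its UMIs 94.2% in library 2 and 91.1% in library 1 lay in 10 and 5 cells with at least 10 Elane UMIs each, 0 of which were S-phase cells. Of those cells 50% and 60% lay past the mitotic threshold only, and their median depth was 8032.5 and 8447 UMIs. Ly6c2, a surface protein of monocytes, had the same kind of distribution, with 62.6% and 63.6% of its UMIs in 8 and 5 such cells, 0 of them S-phase cells, and 29.9% of its tested 3′ sequence is shared with another gene. Of 14 measured granule genes Elane alone was called lower. Prtn3, proteinase 3, had log2 ratios of -0.33 and -0.26.

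S-phase cells were found at 8.62% to 16.9% among cells with and without each lineage transcript, and most differences had intervals that held 0. All cells were thinned to 2000 UMIs, which left 4016 cells of library 2 and 2444 of library 1 and set aside 21 and 34 S-phase cells as too shallow. Lineage transcripts were counted in the thinned UMIs, while the S-phase class was kept from the full counts, whose depth was not equal between cells. Of cells with a stem-like transcript (Hlf, Mecom, Procr or Mllt3) 15.04% in library 2 and 10.6% in library 1 were S-phase cells, against 14.4% and 8.62% of cells without. With Dntt, the lymphoid-primed marker, the shares were 13.5% and 8.92%, against 15.3% and 8.92% without. With the early lymphoid Il7r or Ly6d they were 16.9% (11.7 to 23.2) and 13.04% (6.93 to 21.7), against 14.4% and 8.76%. With a granule transcript (Mpo, Ctsg, Elane, Prtn3 or Ms4a3) they were 14.1% and 8.81%, against 16.4% and 9.48%, and with Irf8, the monocyte and dendritic cell factor, 13.7% and 9.33% against 14.7% and 8.84%. Of the 12 differences 1 had an interval that left out 0. It was that of Car2, carbonic anhydrase 2, in library 2, where 16.0% of cells with it and 13.2% of cells without it were S-phase cells (2.87 points, 0.689 to 5.07). In library 1 the Car2 difference was 0.424 points (-1.85 to 2.81). When at least 2 UMIs were asked for, library 2 differed by -3.33 points (-5.66 to -1.07) for a granule transcript, by -2.60 (-4.89 to -0.139) for Dntt, by 12.3 (2.73 to 24.7) for Il7r or Ly6d, from 16 S-phase cells of 60, and by 2.72 (0.00558 to 5.68) for Car2. In library 1 the intervals of all 6 held 0.

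Free RNA can place a transcript in a droplet, so the same transcripts were counted in the 30 MHC class II-high cells of library 1 that could be thinned, at the same 2000 UMIs. Dntt was found in 39.4% of S-phase cells of library 1 and in 6.67% of the MHC class II-high cells, Car2 in 40.8% and 30%, a granule transcript in 82.6% and 60%, and a stem-like one in 18.3% and 10%. Those shares of MHC class II-high cells rested on 2, 9, 18 and 3 of 30 cells, and whether S-phase cells lie above them was not tested. Whether the MHC class II-high cells made these transcripts themselves was not tested either. Il7r or Ly6d was found in 5.50% of S-phase cells and in 0 of 30 MHC class II-high cells, which allows a share of up to 10%, so the 2 shares cannot be told apart. Irf8, which cells rich in MHC class II often express, was found in 16.5% and 86.7%.

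**Figure D5:**
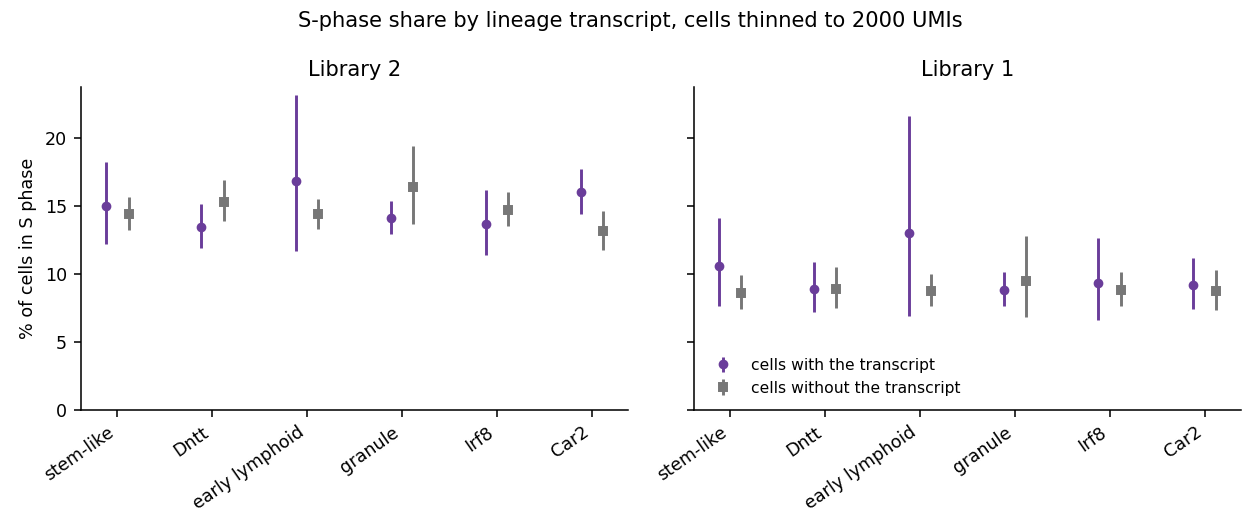
Share of cells that were S-phase cells (%, vertical, from 0) among cells with (purple) and without (grey) each lineage transcript, with library 2 on the left, library 1 on the right and 95% binomial intervals. Transcripts were counted after thinning to 2000 UMIs, and the S-phase class came from the full counts. Most pairs overlap, and Car2 in library 2 stands at 16.0% with and 13.2% without the transcript.

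No gene was called in the lists of ribosome, glycolysis and respiratory chain genes. None of 26 nucleolar and ribosome assembly genes was called, with a median of 0.05 and 0.11, and none of 81 cytosolic ribosomal protein genes, with a median of -0.08 and -0.11. The ribosomal protein genes nonetheless leaned 1 way, since 74 of the 81 were below 1 in both libraries. Rpl32 was the most abundant, at 10132 CPM in S-phase cells against 11404 CPM in other kept cells of library 2 and 11021 CPM against 12899 CPM in library 1. Of 14 glycolysis genes 0 were called and 11 were above 1 in both libraries, with a median of 0.20 and 0.23. Ldha, lactate dehydrogenase A, had log2 ratios of 0.29 (0.24 to 0.33) and 0.37 (0.28 to 0.45). Respiratory chain genes, 78 measured, had a median of -0.0013 and 0.04, and stem genes, 20 measured, of -0.0055 and -0.13, with 0 called in each. Lymphoid priming genes, 15 measured, had 0 called over other kept cells and a median of -0.10 and 0.11. Ly6d, a marker of B-lineage priming, was called higher over cells under both thresholds, with 48.1 CPM in S-phase cells against 25.1 CPM in library 2 and 37.0 CPM against 21.2 CPM in library 1, and over all other kept cells its log2 ratios were 0.98 and 0.14.

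Across all kept cells, the genes outside the rule whose share of a cell's UMIs ran most closely with the S-list share were 2810417H13Rik, Dctpp1, Stmn1, Ldha and Gmnn. Their Spearman rho over 4570 cells of library 2 was 0.52, 0.40, 0.38, 0.41 and 0.39, and over 3253 cells of library 1 it was 0.51, 0.41, 0.41, 0.36 and 0.37, among 3611 genes found in at least 10% of cells. Cells of a library share depth effects and a fixed total, so these values are a description. Dctpp1, which removes stray deoxycytidine triphosphates, had 1007 CPM in S-phase cells against 772 CPM in other kept cells of library 2 and 1179 CPM against 831 CPM in library 1.

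Promoter letters of the raised genes were set beside those of the mitotic genes. RefSeq windows of 300 bases (250 before to 50 after the start, GRCm38.p6) were searched on both strands for the E2F letters TTTCCCGC, TTTGGCGC, TTTCGCGC and TTTGCCGC and for the letters TTTGAA of the cell-cycle homology region (CHR), the site of the DREAM and B-MYB complexes. The E2F letters were in 2.26% of all 32851 windows and in windows of 5.49% of 6450 tested genes with an entry. They were found for 8 of the 18 S-list genes with an entry (Cdc6, Hells, Lig1, Mcm3, Mcm5, Mcm6, Mcm7 and Uhrf1), for 13 of 34 replication genes outside the rule, for 8 of 34 called higher and for 0 of 16 called lower. Without the first T of each, the E2F letters were found for 21.5% of tested genes, for 11 of 18 of the S list and for 3 of 11 of the mitotic list. CHR letters were in 17.9% of all windows and for 14.5% of tested genes, for 9 of 11 genes of the mitotic list, for 2 of 18 of the S list, for 8 of 16 called lower and for 5 of 34 called higher. Genes were matched by symbol, and a match of letters shows no binding. The windows below show 3 S-list genes and E2f2 with E2F letters and the mitotic gene Cdc20 with its CHR letters, in capitals, on GRCm38.p6. In Mcm5, the letters TTTCGCGC at position -153 from the start overlap GCGCCAAA at -149.
Mcm5 (chr8:75109259-75109558, plus strand): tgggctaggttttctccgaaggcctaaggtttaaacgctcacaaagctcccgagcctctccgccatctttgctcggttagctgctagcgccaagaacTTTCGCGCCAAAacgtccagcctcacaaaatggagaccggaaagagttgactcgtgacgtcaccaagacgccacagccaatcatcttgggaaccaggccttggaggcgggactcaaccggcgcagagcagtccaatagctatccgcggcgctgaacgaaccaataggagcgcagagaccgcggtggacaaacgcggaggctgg
Cdc6 (chr11:98907901-98908200, plus strand): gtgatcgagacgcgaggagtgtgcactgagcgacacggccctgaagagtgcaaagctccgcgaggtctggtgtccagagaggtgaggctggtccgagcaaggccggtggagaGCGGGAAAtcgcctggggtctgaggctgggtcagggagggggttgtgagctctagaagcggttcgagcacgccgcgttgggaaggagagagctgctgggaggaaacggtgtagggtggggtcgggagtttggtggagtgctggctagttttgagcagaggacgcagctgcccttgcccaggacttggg
Uhrf1 (chr17:56304063-56304362, plus strand): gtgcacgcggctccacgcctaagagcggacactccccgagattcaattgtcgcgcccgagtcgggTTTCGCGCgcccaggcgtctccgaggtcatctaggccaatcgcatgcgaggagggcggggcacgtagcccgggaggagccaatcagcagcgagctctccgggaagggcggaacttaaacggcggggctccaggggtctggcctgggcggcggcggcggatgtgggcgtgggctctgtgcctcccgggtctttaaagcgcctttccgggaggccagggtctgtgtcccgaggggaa
E2f2 (chr4:136172024-136172323, plus strand): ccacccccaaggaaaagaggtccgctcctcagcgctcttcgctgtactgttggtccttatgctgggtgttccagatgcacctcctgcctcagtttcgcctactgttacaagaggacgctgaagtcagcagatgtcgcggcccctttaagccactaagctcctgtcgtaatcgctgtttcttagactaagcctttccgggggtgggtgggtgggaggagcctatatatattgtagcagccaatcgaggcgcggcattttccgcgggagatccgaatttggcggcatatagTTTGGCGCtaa
Cdc20 (chr4:118437294-118437593, minus strand): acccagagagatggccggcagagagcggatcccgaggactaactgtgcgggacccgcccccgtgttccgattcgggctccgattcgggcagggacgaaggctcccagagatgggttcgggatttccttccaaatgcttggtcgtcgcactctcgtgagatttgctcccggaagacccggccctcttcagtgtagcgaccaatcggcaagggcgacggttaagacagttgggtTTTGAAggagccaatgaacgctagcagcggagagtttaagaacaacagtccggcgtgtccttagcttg

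The 8 highest and 8 lowest library ratios in S-phase cells had the same sign in other kept cells. Of 5301 genes with at least 50 UMIs in S-phase cells, 132 were past 2-fold with an interval that left out 1 (2.49%), of which 115 were higher in library 2 (2.17%) and 17 lower (0.321%). The median log2 ratio of library 2 over library 1 was 0.11 in S-phase cells and 0.13 in other kept cells. No S-list gene passed 2-fold, their median being -0.03. The rule asks for the same S-list share in both libraries, so a summed S-list ratio near 1 follows from it and these values are a description. Gstp1, a glutathione transferase, had 86.6 CPM in S-phase cells of library 2 and 2.65 CPM in those of library 1, from 207 and 2 UMIs, and in other kept cells 73.1 and 4.91 CPM. Pgk1, the glycolytic phosphoglycerate kinase, had 69.0 and 7.94 CPM, and Ppia, cyclophilin A, 974 and 126 CPM, and in other kept cells Ppia had 921 and 135 CPM. Another gene holds each of the 251 tested 50-base stretches at the 3′ end of Gstp1 and 21.5% of those of Ppia, so their counts are uncertain. 1810009A15Rik, Polr2k, Cmss1, Mrpl23 and Emc4 completed the 8 highest. The lowest were Wdfy1, an endosomal adaptor of Toll-like receptor signalling, at 8.79 and 58.2 CPM, then Rps27rt, Hist1h2bb, Hbb-bt, Dnajb14, Otulin, Odf2 and Gm6133.

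Of these 8 lowest genes Otulin, a deubiquitinase of linear chains, Odf2, a centriole protein, and Hist1h2bb had a library ratio in S-phase cells whose difference from that in other kept cells had an interval that left out 0. These genes were picked by the S-phase ratio itself, so this is a description, and 427 of all 5301 genes (8.06%) had such an interval. The log2 ratio of Otulin was -1.28 in S-phase cells and -0.04 in other kept cells, a difference of -1.23 (-2.07 to -0.40), and that of Odf2 was -1.26 and -0.11, a difference of -1.14 (-1.86 to -0.43). For Hist1h2bb, whose tested 3′ sequence is 60.2% shared, the interval came close to 0, at -1.69 to -0.0048. The 43 mitotic genes outside the rule with enough UMIs had a median library log2 ratio of 0.22 in S-phase cells and 0.61 in other kept cells. Cells past the mitotic threshold only made up 27.8% of kept cells of library 2 and 15.5% of library 1. The rule keeps them out of the S-phase class, and their part in these medians was not tested. Of 6 measured MHC class II genes, Cd74, H2-Aa, H2-Ab1 and H2-Eb1 ran in opposite directions in the 2 libraries when S-phase cells were set against other kept cells, and H2-DMa and H2-DMb1 had ratios above 1 in both. Cd74 had 197 CPM in S-phase cells against 106 CPM in other kept cells of library 2 and 131 CPM against 394 CPM in library 1. A total of 2 kept cells of library 2 and 40 of library 1 had at least 1% of UMIs from H2-Aa, H2-Ab1, H2-Eb1 and Cd74, and 1 of them, in library 2, was an S-phase cell that held 138 of the 471 Cd74 UMIs. Without these cells Cd74 stood at 140 CPM against 102 CPM in library 2 and 131 CPM against 126 CPM in library 1.

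Many markers of other cell types were at 0 in S-phase cells, and Nkg7, Cd79b, Cd68, Hbb-bt and Pecam1 were among those that were not. S-phase cells held 2390373 and 755946 UMIs in libraries 2 and 1, against 16360095 and 9362553 in other kept cells. A 0 in the smaller pool is therefore weak evidence of absence. Neutrophil markers summed to 6.28 CPM in S-phase cells of library 2 and 10.6 CPM in those of library 1, with 2 and 4 of 7 at 0, against 43.0 and 22.8 CPM in other kept cells. B cell markers summed to 72.8 and 71.4 CPM against 73.2 and 67.3 CPM, nearly all from Cd79b, with 3 and 5 of 7 at 0 in S-phase cells, and T and NK cell markers to 359 and 317 CPM against 315 and 298 CPM, nearly all from Nkg7, with 4 of 6 at 0 in S-phase cells of each library. Macrophage markers summed to 51.9 and 42.3 CPM against 36.8 and 47.0 CPM, with 1 and 2 of 7 at 0, and erythroid markers to 45.6 and 112 CPM against 48.6 and 101 CPM, with 3 of 6 at 0 in each library. Stromal and endothelial markers summed to 22.6 and 41.0 CPM against 29.8 and 31.4 CPM, with 6 and 5 of 7 at 0. Their part in the S-phase values was not tested.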

How the data were processed

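The authors deposited UMI counts (unit: count), a matrix of 27998 genes by 7884 barcodes whose nonzero values were whole numbers from 1 to 436. Per the submitters' processing notes the tool was Cell Ranger 1.1 and the build mm10; how cells were called is not stated there. The members, gene lists and comparisons were chosen with earlier results of these data known. Summed UMIs per library and class were scaled to 1000000 (CPM). Ratios carry exact conditional Poisson, shares Clopper-Pearson and differences of shares Newcombe 95% intervals, and all cover counting error only. Genes were required to have at least 50 UMIs in kept cells of each library, or over S-phase cells for library ratios, and a list is described by its counts and median beside all genes. Named genes were the 15 highest and 10 lowest called, up to 4 per list and measure, and the 8 highest and lowest between libraries. Other genes were named after their values were seen. Some called genes are not reported here. No doublet caller was run, and an alternative left out the 5% deepest cells. For shared sequence, 50-base stretches of the last 300 bases of transcripts were looked up in GENCODE M21, and 182 of 218 genes had none in another gene. Positions are those of GENCODE M21 on GRCm38, and promoter windows are RefSeq's. Python 3.11.15, numpy 2.4.6, scipy 1.17.1, pandas 2.3.3, matplotlib 3.10.9 and, for TMM factors, edgeR 4.0.16 in R 4.3.3 were used. Alternatives changed thresholds, filters, depth, scaling and comparison cells, and left out a library.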

Additional observations from a re-analysis of the deposited data

Results flagged for a closer look

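For 9 of 8242 tested genes (0.109%) the ratio of S-phase cells to other kept cells left out 1, with its interval, in opposite directions in the 2 libraries, and the difference between the libraries was not tested. The log2 ratio in library 2 was 0.89 for Cd74, 0.72 for H2-Ab1, 1.12 for H2-Aa and 0.80 for H2-Eb1, all MHC class II genes, and in library 1 it was -1.59, -1.87, -2.13 and -2.55. Without MHC class II-high cells it was 0.45, 0.35, 0.42 and 0.44 in library 2 and 0.06, -0.19, 0.19 and -0.38 in library 1, where all 4 intervals then held 0. Naaa, a lysosomal amidase, and Ckb, a creatine kinase, had 1.65 and 1.37 in library 2 from 28 and 14 UMIs, and 1 UMI each in S-phase cells of library 1, where their ratios were below 0. Of the 104 Naaa UMIs of library 1, 80 lay in MHC class II-high cells, and of the 82 Ckb UMIs, 46. Slc6a13, a transporter of the GABA family, had 0.64 and Ccl25, a chemokine, 0.64 in library 2, from 30 and 34 UMIs, and both were below 0 in library 1 from 4 and 2 UMIs. Gm8797 had -0.89 in library 2 and was above 0 in library 1, and 92.0% of its tested sequence occurs in another gene.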

How the results depend on the processing

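No paired analysis was possible because each genotype has 1 library and no label ties a library to it. The S-phase share of libraries 2 and 1 was 26.8% and 18.1% at an S-list threshold of 0.4%, 0.569% and 0.646% at 0.75%, 10.4% and 6.06% at a mitotic threshold of 0.05%, 14.7% in library 2 at 0.2%, 14.97% and 9.71% under a stricter barcode filter, 16.9% and 11.7% after thinning to 2000 UMIs, and 14.9% and 10.7% in the middle UMI range, an alternative chosen after seeing the data. The library difference of 5.47 points became -0.0766 points at 0.75%, where few cells remain. The 54 genes called higher became 20 at 0.75%, 19 after thinning, 31 with at least 200 UMIs, 32 when the rule used a separate part of the UMIs (also chosen after seeing the data), and 234 to 240 with either library left out, where agreement between libraries is no longer asked for. The 23 called lower became 49 at 0.4%, 5 at 0.75%, 15 after thinning, 7 in the middle UMI range, 36 with TMM scaling, 13 with at least 200 UMIs, and 182 to 250 with a library left out. These counts are not all of the same genes. Of the 54, 30 were called at 0.4%, 32 against cells under both thresholds and 18 when the rule used the separate part. At 0.75% 7 of the 54 were called, after thinning 13, and in the middle UMI range, where 6054 genes were tested, 19. Of the 23, 17 were called at 0.4%, 0 at 0.75%, 10 after thinning and 2 in the middle UMI range. Against cells under both thresholds 6 of the 23 were called, and 8 when the rule used the separate part. The 132 genes between libraries became 19 at 0.75%, 71 in the middle UMI range, 237 with at least 20 UMIs and 28 with at least 200. Ifit1 turned to 0.62 at 0.75%. The list median of G1 and S cyclins turned to -0.30 at 0.75%, and that of histone genes to 0.22 against cells under both thresholds, while the replication list stayed between 0.40 and 0.60 in all 18 alternatives. Where a cause is not given by the alternative's own construction, the cause was not tested.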
